A study of Mus musculus with 6 samples.

Results

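G-CSF and GM-CSF are the growth factors that drive the production of neutrophils, prolong their survival and prime them against microbes. G-CSF binds a homodimer of Csf3r, whereas GM-CSF binds its own alpha chain, Csf2ra, paired with the beta common chain Csf2rb. The mouse carries a second beta chain gene, Csf2rb2, whose product serves the IL-3 receptor. These receptors have no kinase activity of their own and signal through JAK kinases, which phosphorylate the transcription factors STAT3 and STAT5. The STAT proteins in turn switch on the feedback inhibitors Socs1, Socs3 and Cish.

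Here 10 genes of this pathway were measured in mouse neutrophils, chosen by name from the 54532 genes of the expression table: the receptor chains Csf3r, Csf2ra, Csf2rb and Csf2rb2, the transcription factors Stat3, Stat5a and Stat5b, and the inhibitors Socs1, Socs3 and Cish. All 10 were found and all 10 were above the minimum level for testing. Neutrophils were taken from the bone marrow of C57BL/6J mice, WT or with a progranulin (PGRN) knockout, and were cultured for 2 h before live *C. albicans*, a yeast that causes invasive infection, was added for 6 h, at 1 fungal cell per neutrophil by the labels. There were 3 WT and 3 PGRN KO cultures, all of them infected, so the values give the difference between genotypes under infection and hold no uninfected level. The study's methods describe purification with beads against Ly-6G, a knockout strain from a commercial breeder and WT mice from a local facility, so that the genotype and the origin of the mice cannot be told apart. The methods state that mice were matched for sex and age. The sources used here give neither the age and sex of these donors nor the number of mice per culture. The p-values therefore measure the spread between these 6 libraries, which may be technical.

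The unit is FPKM, the number of sequenced fragments per kilobase of gene, scaled to the size of the library. Each library held 17087344 to 18821091 fragments on genes, and the 10 genes were each read from at least 447 fragments in every library. The test was limma on log2(FPKM + 1) over 14807 genes, and a gene was called at a Benjamini-Hochberg adjusted p under 0.05. Grn, which encodes PGRN, had an FPKM of 168.4, 161.3 and 166.1 in WT and of 0.242, 0.206 and 0.747 in PGRN KO (log2 fold change -6.91, adjusted p = 1.05e-05), as the labels state. The neutrophil identity of the cells was clear from S100a8 (17949 ± 878 and 16846 ± 1156 FPKM, SD, n = 3 each) and S100a9, with a sum over 10 neutrophil markers of 67326 to 71949 FPKM in WT and 69175 to 78933 in PGRN KO. Of these 10 markers, 1 was called higher and none lower, beside 7.94% called higher and 9.95% called lower over all tested genes. The called marker was Mmp9, with means of 146.7 FPKM for WT and 175.2 for PGRN KO (adjusted p = 0.0224). S100a9 had a log2 fold change of 0.21 and did not pass the test (adjusted p = 0.114). It was called higher when libraries were scaled to their plain fragment totals (log2 fold change 0.33, adjusted p = 0.0286). Quantile normalization (adjusted p = 0.0021) and leaving out PGRN KO replicate 4 (adjusted p = 0.0286) also gave a call. All PGRN KO libraries lay above all WT libraries for 3 of the 10, S100a9 included, and below them for 1. Over all tested genes these orders were seen in 18.1% and 19.6%. With 1 library left out, 0 to 3 were called higher. Markers of other cells differed more between the genotypes, and their values are given with the results on the receptors.

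In PGRN KO neutrophils, 7 of the 10 genes were lower than in WT, none was called higher and 3 did not pass the test. All 10 log2 fold changes were below 0, with a median of -0.33, against a median of 0.0026 and 7321 of 14807 fold changes below 0 over all genes tested. That median of -0.33 shrank to -0.21 when libraries were scaled to their plain fragment totals. With voom, which models the fragments themselves and here used the same plain totals as library sizes, it was -0.22. Over all genes tested, 9.95% were called lower, 7.94% were called higher and 17.9% were called in either direction. Because all 10 genes had a mean of at least 5 FPKM, the share among the 5136 genes at that level is the closer background, and there 20.1% were called lower. In 9 of the 10 genes every PGRN KO library lay below every WT library, an order shared by 19.6% of all tested genes and by 32.6% of those with at least 5 FPKM, while the opposite order was seen in 18.1% of all tested genes. With 1 library left out 3 of the 10 genes were called lower, except without PGRN KO replicate 4, where 7 were. The 10 genes were chosen together as a pathway with earlier results known, and the counts describe them without a test of the group.

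**Figure D1:**
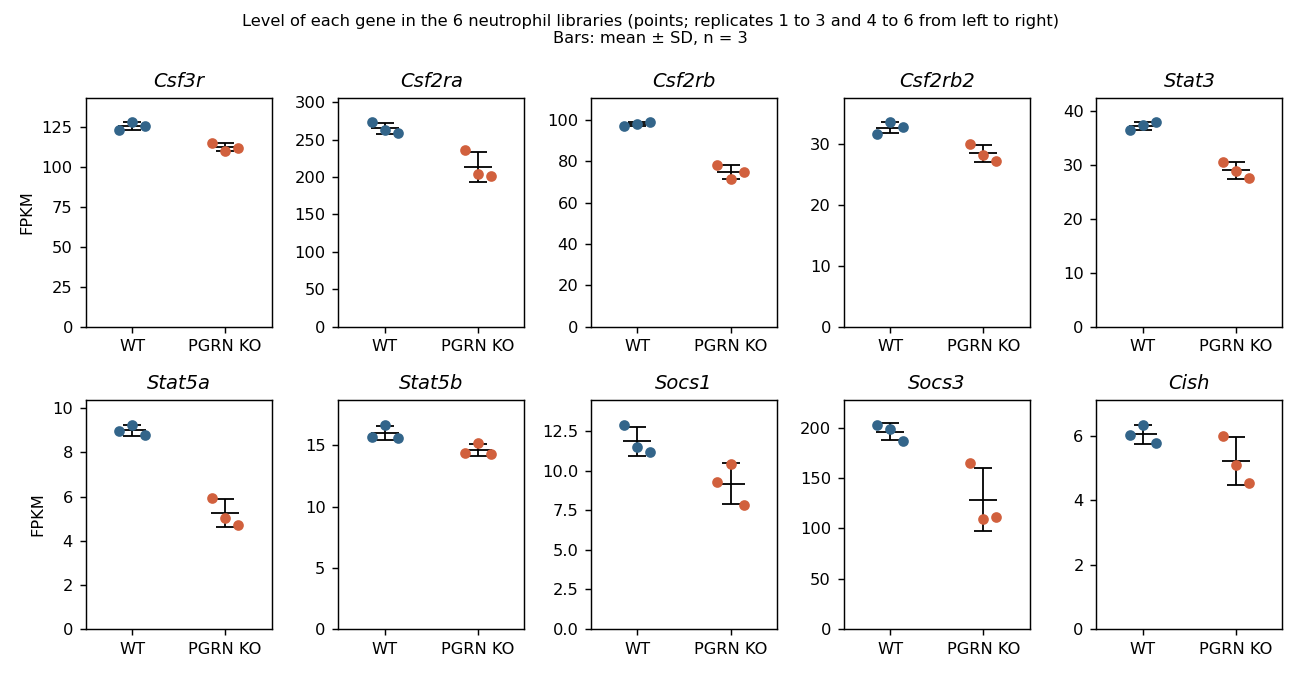
FPKM of each of the 10 genes in the 3 WT (blue) and 3 PGRN KO (orange) libraries, with the mean and SD of each genotype as bars and every axis starting at 0. The genotypes overlap only for Cish, and among the PGRN KO libraries replicate 4, the left orange point, is the highest for 8 of the 10 genes.

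The genes spanned a wide range of levels. In WT the order by mean FPKM was Csf2ra (264.9), Socs3 (196.3), Csf3r (125.6), Csf2rb (98.1), Stat3 (37.2), Csf2rb2 (32.6), Stat5b (16), Socs1 (11.9), Stat5a (8.99) and Cish (6.05). The ranks were the same in PGRN KO. All 9 pairs of neighbours in this order were apart in the WT libraries, whereas in the PGRN KO libraries the pairs Socs3 and Csf3r, Stat3 and Csf2rb2, and Stat5a and Cish overlapped. The level of a gene depends on the length by which its fragments are divided, and the length in the table was 1 to 2.25 times that of the gene's longest protein-coding transcript. Per kilobase of that transcript, Csf2rb (145.6 FPKM in WT) passed Csf3r (130.2), and Stat5a (16.5) and Cish (13.6) passed Socs1 (11.9), so the order of these neighbours is not fixed by the data.

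STAT5 and STAT3 dimers bind a palindrome, TTCNNNGAA, which is the same on both strands, and its presence at the starts of the 10 genes is shown here because feedback inhibitors are textbook STAT targets. In a window from 250 bases before to 50 bases after each RefSeq start on GRCm38.p6, the motif was found in 8.30% of 32851 windows of all genes and in 9.55% of 27025 genes. Of the 9 genes among the 10 with such a window (all except Csf2rb), 3 held it: Cish 2 times, at bases 1 to 9 and 12 to 20 counted from the start, Socs3 once, at -154 to -146, and Csf2rb2 once, at -15 to -7. A window with 2 or more copies, like that of Cish, made up 0.457% of all windows. The sequences shown are from RefSeq, read along the strand of the gene, with the motif in capitals. The Cish window is chr9:107296409-107296678 on the plus strand and runs to base 20 counted from the RefSeq start. The Socs3 window is chr11:117969367-117969616 and the Csf2rb2 window is chr15:78305722-78305971. Both are on the minus strand and end at the base before the RefSeq start. The RefSeq starts of Cish and Socs3 lie inside the genes as measured here, which run from 107296026 to 107302784 and from 117966079 to 117970047. A match in letters is a description and does not show that a factor was bound in these cells.
Cish: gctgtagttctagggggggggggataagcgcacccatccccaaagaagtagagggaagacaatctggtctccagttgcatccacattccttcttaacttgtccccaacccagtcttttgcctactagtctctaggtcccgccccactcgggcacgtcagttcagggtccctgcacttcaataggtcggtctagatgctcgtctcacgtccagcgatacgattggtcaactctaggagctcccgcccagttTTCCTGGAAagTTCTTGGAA
Socs3: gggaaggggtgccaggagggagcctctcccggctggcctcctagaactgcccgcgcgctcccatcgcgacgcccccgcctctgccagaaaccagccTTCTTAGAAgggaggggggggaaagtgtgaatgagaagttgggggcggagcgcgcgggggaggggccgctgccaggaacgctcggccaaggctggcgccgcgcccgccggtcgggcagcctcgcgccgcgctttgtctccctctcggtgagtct
Csf2rb2: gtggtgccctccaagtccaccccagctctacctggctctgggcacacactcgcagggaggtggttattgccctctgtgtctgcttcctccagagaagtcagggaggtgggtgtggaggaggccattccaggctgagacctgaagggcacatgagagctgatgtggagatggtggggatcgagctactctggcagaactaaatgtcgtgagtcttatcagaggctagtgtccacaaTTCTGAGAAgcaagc

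All 4 receptor chain genes were lower in PGRN KO neutrophils, with log2 fold changes from -0.16 to -0.39. Csf2rb (ENSMUSG00000071713, chromosome 15, 78325752 to 78353847), the chain shared by the receptors for GM-CSF, IL-3 and IL-5, was measured at 97.2, 98.1 and 98.8 FPKM in WT and at 78.1, 71.6 and 74.9 FPKM in PGRN KO. The WT libraries were close together, and the highest PGRN KO library was 19.1 FPKM below the lowest of them. The difference was -0.39 on the log2 scale with a standard error of 0.044 (adjusted p = 0.00251), and the PGRN KO mean was 76.4% of WT. It was called in all 17 alternative analyses that kept it apart from Csf2rb2, including the 6 that each left out 1 library.

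Csf2ra (ENSMUSG00000059326, chromosome 19, 61224402 to 61228418), which gives the receptor its specificity for GM-CSF, was the highest of the 10 genes. It had 273.0, 262.3 and 259.5 FPKM in WT and 236.6, 203.5 and 201.0 FPKM in PGRN KO. PGRN KO replicate 4 stood between the other PGRN KO libraries and WT, and the genotypes did not overlap. With a standard error of 0.069, the log2 fold change of -0.31 passed the test (adjusted p = 0.0248), and the call was lost when any 1 library other than PGRN KO replicate 4 was left out (adjusted p up to 0.0898) and with scaling to the plain totals of fragments (log2 fold change -0.19, adjusted p = 0.0933).

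For Csf3r (ENSMUSG00000028859, chromosome 4, 126024550 to 126044440), the G-CSF receptor, the difference was the smallest of those called. WT libraries had 123.1, 128.0 and 125.5 FPKM and PGRN KO libraries 115.2, 110.4 and 112.1 FPKM. No PGRN KO library reached a WT library, but the gap between the nearest of them was 7.91 FPKM. The log2 fold change of Csf3r, -0.16 with a standard error of 0.038 (adjusted p = 0.0336), became -0.04 with plain totals of fragments (adjusted p = 0.525), so that its call rests on the scaling of the libraries. The call was also lost without any 1 library other than PGRN KO replicate 4 (adjusted p up to 0.136). Csf2rb2 (ENSMUSG00000071714, chromosome 15, 78282507 to 78305721), the second beta chain, had 31.6, 33.5 and 32.8 FPKM in WT and 29.99, 28.1 and 27.2 FPKM in PGRN KO. Here too the groups were apart by little, and the log2 fold change of -0.19, with a standard error of 0.051 (adjusted p = 0.043), became -0.08 with plain totals (adjusted p = 0.327), and with 1 library left out the call held only without PGRN KO replicate 4 (adjusted p up to 0.146 otherwise).

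Csf2rb and Csf2rb2 are neighbours with similar sequence, and reads from the stretches they share can be hard to assign to one of them. Their longest coding transcripts were 90.5% identical over 4687 aligned bases, and 3.59% of the 150-base stretches of Csf2rb2 were found unchanged in Csf2rb, so that the split between the 2 genes is less certain than their sum. Their sum differed by -0.35 on the log2 scale (adjusted p = 0.00359). The ratio of Csf2rb2 to Csf2rb, which does not depend on how libraries are scaled, was 0.325, 0.341 and 0.332 in WT and 0.384, 0.392 and 0.364 in PGRN KO. All PGRN KO ratios were above all WT ratios (difference 0.19 on the log2 scale), and the exact permutation p of 0.10, two-sided, is the smallest that 3 against 3 libraries can give (adjusted p = 0.2 over the 6 ratios compared). The ratio of Csf2rb to Csf2ra, the 2 chains of the GM-CSF receptor, overlapped between genotypes (difference -0.08, exact permutation p = 0.2), as did that of Csf3r to Csf2ra (difference 0.16, exact permutation p = 0.2).

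**Figure D2:**
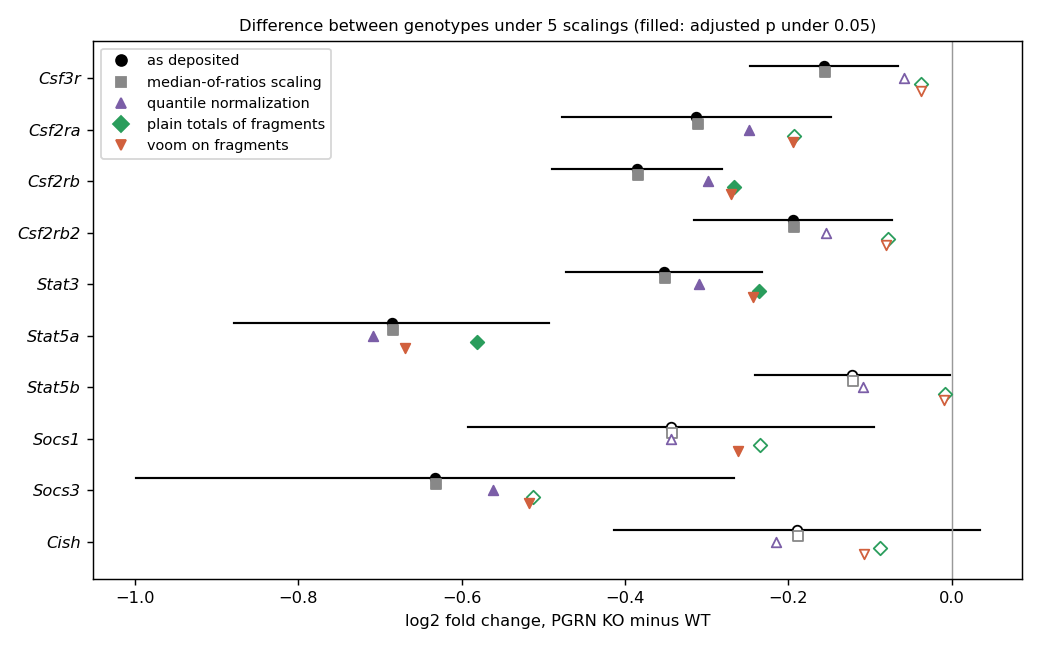
Log2 fold change (PGRN KO minus WT) of the 10 genes in 5 analyses, of which voom uses the plain totals as library sizes. The line is the 95% confidence interval of the deposited scaling, and filled symbols have an adjusted p under 0.05. All symbols lie below 0. The symbols of Csf2rb, Stat3 and Stat5a are filled in every analysis, whereas those of Csf3r and Csf2rb2 are open in 3 of the 5. Median-of-ratios scaling divided every library by a factor of 1.004 to 1.006, so it nearly repeats the deposited scaling.

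The scaling matters because the library sizes behind the deposited FPKM are not the sums of the fragments. The deposited values are already close to median-of-ratios scaling, whose factors on them were 1.004 to 1.006 in every library. The sums were 1.03 to 1.04 times the library size in WT and 0.946 to 0.957 times in PGRN KO. With plain totals the genes called lower over the whole table fell from 1473 to 934 and those called higher went from 1175 to 2149, so that 30.3% of the calls were lower in place of 55.6%. Under that scaling 3 of the 10 genes, Csf2rb, Stat3 and Stat5a, were called lower and all 10 fold changes stayed below 0. Voom on the fragments, which used the same plain totals, moved the median of all tested genes by 0.12. With voom 6 of the 10 genes were called lower and 29.6% of all calls were lower.

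Markers of other cells moved with the genotype in the same libraries. The counts below stand beside 7.94% of all tested genes called higher and 9.95% called lower. Genes of promyelocytes, the neutrophil precursors that synthesize the granule proteases Elane and Prtn3, were higher in PGRN KO for 5 of 5 genes, with summed levels of 128.7 to 143.8 FPKM in WT and 608.7 to 670.4 in PGRN KO. All 5 tested of 7 B cell and plasma cell markers were higher, and their sum of 430.2 to 444.7 FPKM in WT and 2163 to 2455 in PGRN KO was mostly Igkc, an immunoglobulin chain. Of 8 monocyte markers 3 were lower and 1, Ly6c2, was higher (sum 528.4 to 534.6 FPKM in WT and 553.5 to 703.0 in PGRN KO). Without Ly6c2 the other 7 summed to 128.7 to 132.5 FPKM in WT and to 106.7 to 121.3 in PGRN KO, and with 1 library left out Ly6c2 was called only without PGRN KO replicate 4 (adjusted p up to 0.14 otherwise). Basophil and eosinophil markers such as Prss34 and Prg2 were higher for 6 of 7 genes (3.37 to 4.05 and 14.7 to 19.3 FPKM), and the 2 tested erythroid genes Hba-a1 and Hbb-bs were higher (1.01 to 2.79 and 4.59 to 5.48 FPKM). Of 3 tested T and NK cell markers Nkg7 was higher, and Cd3d and Trac were not called (adjusted p = 0.54 and 0.688). Their list summed to 2.74 to 3.61 FPKM in WT and 7.74 to 9.23 in PGRN KO, mostly from Nkg7 (means of 2.54 and 7.79 FPKM). Cd3e, which was not tested, was at 0 in all libraries. Of the erythroid genes, Hbb-bs lost its call without WT replicate 2 or 3 or PGRN KO replicate 4 or 6 (adjusted p up to 0.0758), and Hba-a1 without PGRN KO replicate 5 (adjusted p = 0.0507). With 1 library left out the promyelocyte count stayed at 5, that of the B cell and plasma cell markers was 3 to 4 and that of the basophil and eosinophil markers 4 to 7. Below 1 FPKM in every library were 3 of the 7 B cell and plasma cell markers and 4 of the 7 basophil and eosinophil markers. Tnfrsf17 (0 FPKM in WT), Epx, Fcer1a and Cpa3 (WT means of 0.043, 0.059 and 0.013 FPKM) reached the minimum of 0.1 FPKM only through PGRN KO. Such genes could hardly come out lower, so they add nothing to these counts. The part of these cells in the differences of the 10 genes was not tested, and in bulk RNA fewer cells with a transcript and less of it per cell cannot be told apart.

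The 3 transcription factor genes ranged from the largest to the smallest difference among the 10. Stat5a (ENSMUSG00000004043, chromosome 11, 100859351 to 100885169), which transmits GM-CSF signals, was measured at 8.96, 9.25 and 8.78 FPKM in WT and at 5.95, 5.04 and 4.71 FPKM in PGRN KO. The PGRN KO mean was 58.2% of WT, the largest relative difference of the 10 genes, and each PGRN KO library was far below the WT range. The log2 fold change was -0.69 with a standard error of 0.081 (adjusted p = 0.00284), and Stat5a was called in all 17 alternatives that kept it apart from Stat5b.

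Stat5b (ENSMUSG00000020919, chromosome 11, 100780731 to 100850724) encodes the close relative of STAT5A and lies next to it. It had 15.7, 16.7 and 15.6 FPKM in WT and 14.4, 15.2 and 14.3 FPKM in PGRN KO. The genotypes were apart by 0.43 FPKM, and the log2 fold change of -0.12 (95% confidence interval -0.24 to -0.0023, adjusted p = 0.149) did not pass the test in the deposited scaling or in any of the 17 alternatives that gave it a value. The sum of Stat5a and Stat5b differed by -0.34 on the log2 scale (adjusted p = 0.008). Their longest coding transcripts were 77.9% identical over 3612 aligned bases, with 4.68% of the 150-base stretches of Stat5a found in Stat5b.

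The ratio of Stat5a to Stat5b was 0.571, 0.554 and 0.562 in WT, against 0.413, 0.332 and 0.330 in PGRN KO. Every PGRN KO ratio was below every WT ratio. The difference was -0.66 on the log2 scale (exact permutation p = 0.1, two-sided, the smallest possible, adjusted p = 0.2), and it lay between -0.60 and -0.76 with each library left out in turn.

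Stat3 (ENSMUSG00000004040, chromosome 11, 100885098 to 100939540), the main STAT of the G-CSF receptor, stood at 36.5, 37.3 and 37.8 FPKM in WT and at 30.5, 28.9 and 27.5 FPKM in PGRN KO. The spread within each genotype was small beside the gap between them. The difference of -0.35 on the log2 scale, with a standard error of 0.050, passed the test (adjusted p = 0.00561), and Stat3 was called in all 18 alternatives with adjusted p up to 0.0311. Stat3 and Stat5a lie on opposite strands and overlap by 72 bases at their ends. The sources used here do not give the strand setting of the counting, so that fragments from these 72 bases could be counted for either gene or for neither.

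**Figure D3:**
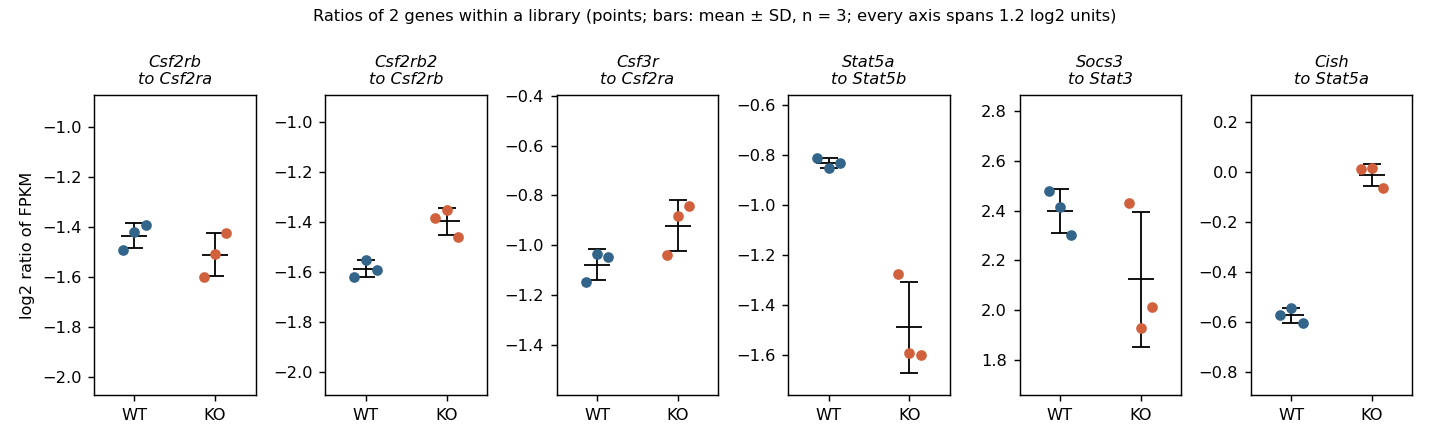
Log2 ratios of FPKM of 2 genes within each library (points), with mean and SD by genotype, WT in blue and PGRN KO in orange, on axes that all span the same range. The ratios of Stat5a to Stat5b, Csf2rb2 to Csf2rb and Cish to Stat5a do not overlap between genotypes, and the other 3 do.

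Stat3, Stat5a and Stat5b lie on chromosome 11 at 1.49 to 1.58 Mb from the start of Grn, the inactivated gene, and Socs3 lies at 15.5 Mb on its other side. Of the 83 tested genes that start within 2 Mb of Grn, 10 were called lower (12%) and 7 higher (8.43%), with a median log2 fold change of -0.07. These shares were near those of all tested genes. Within 5 Mb, 23 of 175 genes were lower (13.1%) and 12 higher (6.86%). Whether the region around Grn differs in sequence between the WT and PGRN KO mice was not tested.

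**Figure D4:**
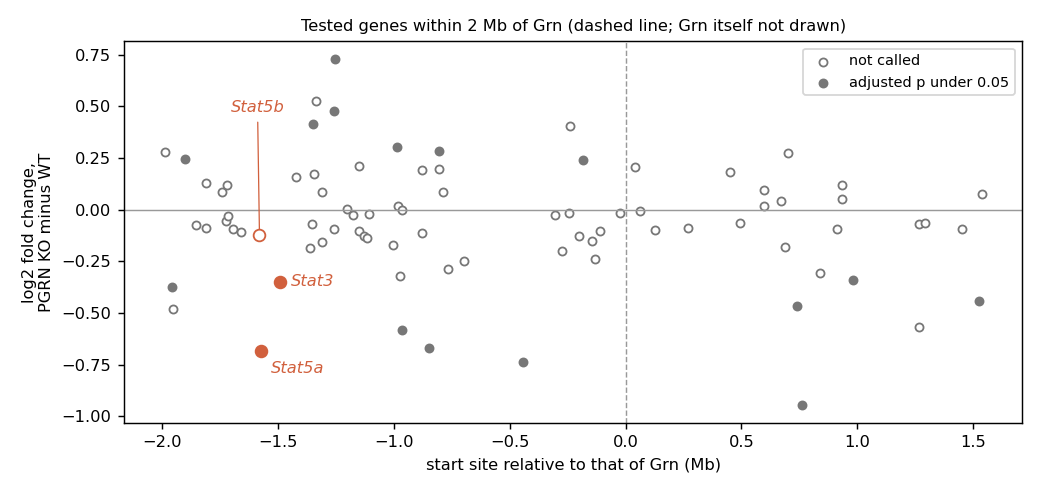
Log2 fold change of the tested genes within 2 Mb of Grn by the distance of their start from that of Grn (dashed line), with called genes filled. Stat5a and Stat3 (orange, filled) are among the 10 genes called lower, Stat5b (orange, open) was not called, and genes called in both directions stand on the same side of Grn.

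Of the feedback inhibitors, 1 of 3 passed the test. Socs3 (ENSMUSG00000053113, chromosome 11, 117966079 to 117970047), which binds the activated G-CSF receptor and stops its STAT3 signal, was abundant, at 203.3, 199.0 and 186.6 FPKM in WT. In PGRN KO it was at 164.7, 109.9 and 110.9 FPKM. Replicates 5 and 6 were nearly equal and replicate 4 lay between them and WT, which gave Socs3 the largest spread among PGRN KO libraries of the 10 genes (coefficient of variation 24.4%). On the log2 scale the difference was -0.63 with a standard error of 0.154 (adjusted p = 0.0332). Without PGRN KO replicate 4 it was -0.82 (adjusted p = 0.00115), whereas without any other 1 library the adjusted p was 0.0749 to 0.106, and with plain totals it was 0.0565.

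The ratio of Socs3 to Stat3 sets the inhibitor beside the factor that induces it. It was 5.58, 5.33 and 4.93 in WT and 5.40, 3.81 and 4.04 in PGRN KO. PGRN KO replicate 4 lay within the WT range, and the difference was -0.27 on the log2 scale (exact permutation p = 0.3, adjusted p = 0.3).

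Socs1 (ENSMUSG00000038037, chromosome 16, 10782240 to 10785536), an inhibitor of JAK kinases best known from interferon signalling, had 12.9, 11.5 and 11.2 FPKM in WT and 9.31, 10.4 and 7.82 FPKM in PGRN KO. Although the groups did not overlap, PGRN KO replicate 5 came within 0.75 FPKM of WT replicate 3. The log2 fold change of -0.34, with a standard error of 0.104, was about as large as that of Stat3, but the spread was larger and it missed the threshold (adjusted p = 0.0672). It was called with 2 of 18 alternatives, the minimum of 1 FPKM (adjusted p = 0.0416) and voom (adjusted p = 0.0498).

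Cish (ENSMUSG00000032578, chromosome 9, 107296026 to 107302784), the inhibitor induced by STAT5 whose RefSeq start holds the motif 2 times in the sequence above, did not pass the test. Its values were 6.03, 6.34 and 5.77 FPKM in WT and 6.00, 5.10 and 4.52 FPKM in PGRN KO. PGRN KO replicate 4 lay among the WT libraries and the other 2 below them. The log2 fold change was -0.19 (95% confidence interval -0.41 to 0.035, adjusted p = 0.224), and no alternative called it. Gm17040, a transcribed processed pseudogene, and Gm17041, an antisense transcript, overlap Cish on the opposite strand, with means of 0.0912 and 0 FPKM. The ratio of Cish to Stat5a was 0.673, 0.685 and 0.657 in WT, against 1.01, 1.01 and 0.958 in PGRN KO. These ratios did not overlap between genotypes (log2 difference 0.56, exact permutation p = 0.1, the smallest possible, adjusted p = 0.2).

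Among the ligands, only the gene for G-CSF was expressed at an appreciable level. Csf3 (ENSMUSG00000038067, chromosome 11, 98701263 to 98703629) had 87.6, 97.2 and 97.2 FPKM in WT and 95.6, 72.7 and 65.3 FPKM in PGRN KO. As for Cish, PGRN KO replicate 4 lay within the WT range, and the log2 fold change of -0.29 (95% confidence interval -0.61 to 0.035, adjusted p = 0.202) did not pass the test. Without that library it was -0.44 and passed (adjusted p = 0.0159), and without PGRN KO replicate 6 it was -0.17 (adjusted p = 0.423). Csf2, the gene for GM-CSF, was read from 13 fragments over the 3 WT and 7 over the 3 PGRN KO libraries, and Il5 from 13 and 9, both at under 1 FPKM in each library (adjusted p = 0.485 and 0.666). Il3 was listed at 0 in all 6 libraries.

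Beyond the 10 genes, 61 others of the pathway, the 4 ligands included, were followed in lists by role. Of the 59 that were tested, 21 were lower in PGRN KO, 2 were higher and 36 did not pass, with a median log2 fold change of -0.14. Over all tested genes 9.95% were called lower and 7.94% higher, and among those with at least 5 FPKM 20.1% were called lower. The counts by role in the next paragraphs stand beside these shares. With plain totals 11 were lower and 5 higher with a median of -0.03. With voom, on the same totals, 16 were lower and 8 higher, again with a median of -0.03. With 1 library left out 11 to 22 were lower, the 11 without WT replicate 2 or PGRN KO replicate 5, and at most 1 was higher. Of the 17 called genes given with values in the next paragraphs, 8 were called in all 18 alternatives, namely Il10rb, Ifnar1, Jak1, Jak2, Ptpn1, Gab2, Osm and Il1rn, while 7 lost the call with plain totals, namely Il4ra, Lyn, Grb2, Stat2, Stat6, Pias1 and Junb.

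The cytokine receptors that share JAK and STAT proteins with these receptors were lower for 6 of 12 genes, with none higher and a median of -0.21. Il10rb, a chain of the IL-10 receptor, went from 63.7 ± 0.752 to 49.6 ± 0.666 FPKM (SD, n = 3 each, log2 fold change -0.36, adjusted p = 0.0017). Il4ra, of the IL-4 receptor, went from 58.0 ± 2.57 to 46.0 ± 5.33 FPKM (-0.33, adjusted p = 0.0367), and Ifnar1, of the type I interferon receptor, from 30.8 ± 0.477 to 24.3 ± 0.886 FPKM (-0.33, adjusted p = 0.00452). The call of Il4ra was lost with plain totals (log2 fold change -0.22, adjusted p = 0.111) and without any 1 library other than PGRN KO replicate 4 (adjusted p 0.0798 to 0.12). The other 3 were Ifnar2, Il6ra and Il6st.

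Of 7 kinase genes, 3 were lower and 4 did not pass the test. Jak2, the kinase bound by the beta common chain, had 43.8, 41.7 and 43.5 FPKM in WT but 33.4, 29.7 and 34.7 in PGRN KO (log2 fold change -0.39, adjusted p = 0.00916). Jak1 had 63.8, 64.3 and 69.8 FPKM in WT but 48.0, 47.4 and 52.6 in PGRN KO (-0.41, adjusted p = 0.00565). Lyn, a Src family kinase of the G-CSF receptor, was also lower (-0.23, adjusted p = 0.0154), but not with plain totals (-0.12, adjusted p = 0.111), with voom (adjusted p = 0.114), or without WT replicate 2 (adjusted p = 0.0596) or PGRN KO replicate 5 (adjusted p = 0.0651). Jak3 and Tyk2, of the same JAK family, had log2 fold changes of 0.09 and 0.05 (adjusted p = 0.575 and 0.75).

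Adaptors and phosphatases were lower for 4 of 10 genes: Ptpn1, a phosphatase that acts on JAK2, from 122.1 ± 4.17 to 87.8 ± 5.21 FPKM (log2 fold change -0.47, adjusted p = 0.00264), Gab2, a docking adaptor, from 21.9 ± 0.73 to 15.9 ± 0.367 FPKM (-0.44, adjusted p = 0.00192), Grb2, which links receptors to Ras (-0.33, adjusted p = 0.0274), and Inpp5d, the lipid phosphatase SHIP1. Of the other STAT genes Stat2 (-0.21, adjusted p = 0.02) and Stat6 (-0.18, adjusted p = 0.0281) were lower. Of 9 other SOCS and PIAS genes, inhibitors of cytokine signals, 8 were tested and 1, Pias1, was lower (-0.27, adjusted p = 0.0245), while Socs2 was below the minimum level. That count of 1 in 8 is near the 9.95% called lower over all tested genes. With 1 library left out, Grb2 was called only without WT replicate 3 or PGRN KO replicate 4, Stat2 only without PGRN KO replicate 4 or 6, and Stat6 and Pias1 only without WT replicate 1 or PGRN KO replicate 6.

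Of 15 genes known as STAT targets, 5 were called lower and 2 higher, with a median of -0.19. Over all tested genes 9.95% were called lower and 7.94% higher, so the count of 2 higher is near that of all genes. Osm, the cytokine oncostatin M, went from 189.0 ± 2.14 to 118.9 ± 4.88 FPKM (SD, n = 3 each, log2 fold change -0.66, adjusted p = 0.000352). Il1rn, the IL-1 receptor antagonist, had 2165 ± 127 and 1452 ± 37.5 FPKM (-0.57, adjusted p = 0.0014), and Junb, a transcription factor of early response, 1222 ± 58.9 and 858 ± 148 FPKM (-0.52, adjusted p = 0.0266). Junb lost its call with plain totals (adjusted p = 0.0541) and without any 1 library other than PGRN KO replicate 4, and Bcl6 and Cdkn1a were the other 2 that were lower. Higher in PGRN KO were Cebpd, a transcription factor (from 31.5 ± 2.33 to 37.8 ± 0.984 FPKM, 0.26, adjusted p = 0.031), and Ccnd3, a cyclin (from 22.7 ± 1.26 to 27.0 ± 1.17 FPKM, 0.24, adjusted p = 0.0317). Cebpd was not called when any 1 library was left out, and Ccnd3 was then called only without PGRN KO replicate 6 (adjusted p = 0.04). Pim1, a classical STAT5 target, had a log2 fold change of -0.11 (adjusted p = 0.501).

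**Figure D5:**
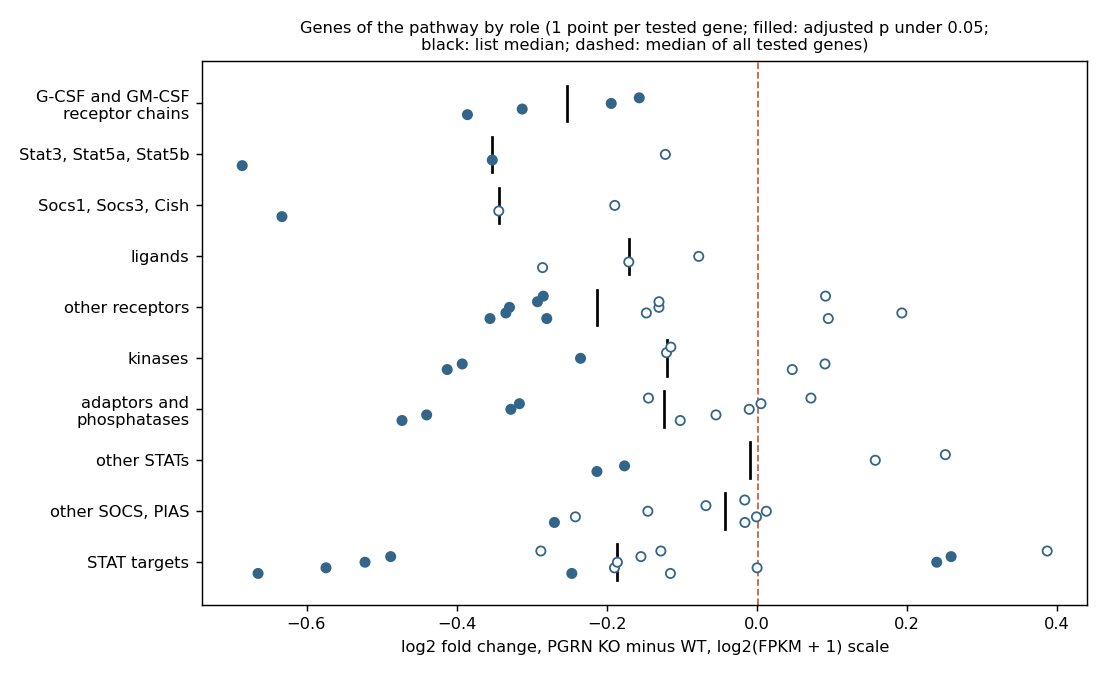
Log2 fold change (PGRN KO minus WT) of each tested gene of the pathway, by role, with called genes filled, list medians as black lines and the median of all tested genes as a dashed line. All 10 genes in the top 3 rows lie left of the dashed line, the other receptors, kinases and adaptors lie on both sides with called genes on the left alone, and the STAT targets have called genes on both sides.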

How the data were processed

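RNA of 6 cultures of mouse bone marrow neutrophils was sequenced after 6 h with live *C. albicans*, 3 WT and 3 PGRN KO by their labels. The submitters' processing notes name CASAVA, HISAT2 2.0.5, featureCounts 1.5.0-p3, DESeq2 1.20.0 and GRCm38, whereas the study's methods name HISAT and HTSeq. The authors deposited FPKM values for 54532 genes, of which 31614 were at 0 in all libraries. The values multiplied by gene length and library size were whole fragments within 0.05, which gave WT depths of 17290604 to 17799798 fragments and PGRN KO depths of 17087344 to 18821091. Such numbers cover counting error only. The fungal dose in the opening is that of the labels, and the paper gives another.

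From FPKM, log2(FPKM + 1) was compared for the 14807 genes with a mean of at least 0.1 FPKM, with limma 3.58.1 (eBayes with trend) in R 4.3.3, two-sided, with Benjamini-Hochberg adjustment. This replaces a count test because no counts were used as deposited. Fold changes on this scale understate those of low genes. Ratios of 2 genes were tested with exact permutation tests in scipy 1.17.1. Other steps used Python 3.11.15, numpy 2.4.6, pandas 2.3.3, Biopython 1.88 and matplotlib 3.10.9. The fit was tested on simulated data.

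The 10 genes, the gene lists and the alternatives were chosen with earlier results of these data known. Genes named in the text are Grn, the 10 genes, the 4 ligands, up to 3 called genes in each direction per pathway list with a mean of at least 1 FPKM, and the 2 highest genes of each marker list. Other called list members, and uncalled genes with values, were named after their values were seen. The alternatives were other pseudocounts, filters, scalings and variance models, voom on fragments, summed gene pairs and each library left out in turn, and, added after the data were seen, the length of the longest coding transcript of GENCODE M21 and a background of genes with at least 5 FPKM. Pearson correlations of log2 values across genes were 0.991 to 0.992 within a genotype and 0.978 to 0.981 between genotypes. No replicate pair was as alike as sampling noise alone would make it (chi-square per degree of freedom of at least 2.83). Promoter windows are from RefSeq. Macrophage libraries were not analysed here.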

Additional observations from a re-analysis of the deposited data

How the results depend on the processing

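Stat3 was called lower in all 18 alternatives, Csf2rb and Stat5a in the 17 that did not sum them with their neighbours, and each of the 10 genes kept a log2 fold change below 0 in every alternative that gave it a value. Some alternatives are near-repeats that could change little. Median-of-ratios factors were 1.004 to 1.006 in every library, and summed pairs leave the values of the other genes as they are. Totals outside immunoglobulin genes are close to plain totals, and voom used the plain totals with another model of the spread. Csf2ra and Socs3 were called in 10 of 18, Csf3r in 8 of 18 and Csf2rb2 in 6 of 17, with the cause not tested. Of the 10 genes, 4 were called lower without a filter on low values, 3 with plain totals of fragments, 3 with totals outside immunoglobulin genes (0.0891% to 0.101% of fragments in WT and 0.424% to 0.479% in PGRN KO), and 3 to 7 with 1 library left out, where fewer samples were tested. Of the other pathway genes, 11 were called lower with plain totals, 11 outside immunoglobulin genes and 11 to 22 with 1 library left out. Called higher were 1 without a filter, 5 with plain totals, 5 outside immunoglobulin genes, 0 without trend, 8 with voom and 0 to 1 with 1 library left out. Over all genes, 934 were lower and 2149 higher with plain totals, 920 and 2204 outside immunoglobulin genes (29.4% of calls lower), 2984 were higher with voom, and 804 to 1282 were lower and 581 to 947 higher with 1 library left out. The log2 fold change of S100a8 turned to 0.03 and that of Adgre1 to 0.02 with plain totals, to 0.03 and 0.03 outside immunoglobulin genes and to 0.03 and 0.02 with voom, and that of Cd3d to 0.02 without WT replicate 1, all of them not called. The 6 ratios kept their direction in all 48 alternative values. Of the 802 alternative values for 45 named genes, the near-repeats included, 667 kept direction and side of the threshold, 120 lost the call, 8 gained it and 7 turned. No paired analysis was possible because the genotypes share no replicate number.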

Other observations

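PGRN KO replicate 4 was the highest of the 3 PGRN KO libraries for 8 of the 10 genes, and replicate 5 for the other 2, Stat5b and Socs1. Over all 14807 tested genes replicate 4 was the highest in 35.9%, and over the 1473 genes called lower in 44.6%. The cause was not tested.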
